A study of Mus musculus with 2 samples.

Results

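Granulocytes and monocytes, both sorted from bone marrow, were compared for 49 genes of cholesterol synthesis, fatty acid metabolism and lipid droplets. With earlier results of these data known, the genes were chosen by name from the gene names on the array. The droplet protein Plin2 was read from its older name Adfp. The 49 genes were covered by 91 of the 41174 gene probes and by 109 of the 43379 gene spots. All 49 had at least 1 probe well above background on both arrays, where 15428 named genes were above background on at least 1 array.

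Both groups came from wild type male mice of the C57BL/6 strain, and no treatment, age or genetic change is given for either. Granulocytes are here the cells the submitters sorted under that name, and the same holds for monocytes. The labels give neither the surface markers nor the purity of the sort, and no number of mice. Total RNA was labelled with the dye Cy3 and hybridised to 1 array per cell type, so 2 Agilent 1-colour arrays were compared.

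With 1 array per group no difference below has a replicate check, and no test was made. Each difference is therefore a difference between these 2 arrays. A gene is counted as different where its signals differed by at least 4-fold, and a second count at 2-fold is given beside it. In sorted populations measured in bulk, fewer cells of a type and less RNA per cell cannot be told apart.

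The level of a gene is its background-subtracted signal divided by the 75th percentile of the gene spots on the same array, which was 339.4 for granulocytes and 620.9 for monocytes. A level of 1 is thus the signal that 25% of spots exceed. Levels serve to compare the same probe between the arrays, and not one gene with another, because probes differ in brightness. The difference is the log2 level in granulocytes minus that in monocytes. Repeated spots of 245 probes had a median SD of 0.11 (log2) for granulocytes and 0.09 for monocytes. Different probes of a gene disagreed more, with a median SD of their differences of 0.23 over 5329 genes and of 0.28 over the 26 members with at least 2 measured probes.

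No spot was saturated, and the share of probes well above background was 63.9% for granulocytes and 68.2% for monocytes. The labels were checked against marker lists. All 11 neutrophil markers were at least 2-fold higher on the granulocyte array, 7 of them at least 4-fold, with a summed level of 4259 against 1042. The interleukin-8 receptor Cxcr2 stood at a level of 47.3 against 0.142. Other neutrophil markers were also bright on the monocyte array. Ltf stood at 681 against 161, Camp at 379 against 132, and S100a9 at 865 against 415. The S100a9 difference (1.06) changed sign under 1 other scaling or correction. The part of neutrophil lineage cells in the monocyte values was not tested. All 10 monocyte markers were at least 2-fold higher on the monocyte array, 9 of them at least 4-fold, with a summed level of 15.8 against 619. The chemokine receptor Ccr2 stood at 0.152 against 31.0. Markers of other cells were also measured, and their summed level in granulocytes and monocytes was 337 and 15.9 for eosinophils, basophils and mast cells, 218 and 63.5 for red cells, 9.60 and 28.3 for macrophages, 6.23 and 16.0 for T and NK cells, 5.73 and 5.14 for B cells, 7.54 and 1.26 for megakaryocytes, and 0.294 and 0.366 for endothelium. Of the 6 markers of adipocytes and stroma, 2 were well above background in granulocytes and 5 in monocytes, and the sum was 1.65 and 0.261. Col1a1 alone gave 1.53 and 0.0986 of these sums, with probe differences from 0.57 to 3.95. Cfd was above background on the monocyte array alone, at a level of 0.0702, and at least 2.52-fold higher there. Of the fat cell hormone genes, Lep was not well above background on either array, and Adipoq was above it on the monocyte array alone, at a level of 0.0156 where the lowest called was 0.0152.

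Cells make cholesterol from acetyl-CoA through mevalonate, squalene and lanosterol, under the control of the membrane-bound factor SREBP2, which the sterol sensor SCAP carries to the Golgi when sterols are low and which INSIG proteins hold back when they are high. SREBP1 acts in the same way on genes for fatty acid synthesis and desaturation. Fatty acids activated by acyl-CoA synthetases are either burned in mitochondria or joined to glycerol as triglyceride, which is stored in droplets coated by perilipins and released by lipases. Monocytes give rise to macrophages, which take up and export lipid, whereas mature neutrophils are short-lived cells rich in glycogen and granules.

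The pathways were split between the arrays, and the large differences lay at a few steps. Of the 49 members, 4 were at least 4-fold higher in granulocytes (Dgat1, Dgat2, Hsd17b7 and Acsl1), which is 8.16% against 8.58% of all genes. A further 6 were at least 4-fold higher in monocytes (Lpl, Fasn, Elovl6, Scd2, Apoe and Insig1), which is 12.2% against 10.5% of all genes. At 2-fold the counts were 12 members (24.5%) against 29.0% of all genes for granulocytes and 11 members (22.4%) against 21.0% for monocytes. As a list the members were thus called about as often as any gene, and what follows concerns which of them were called.

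Differences ran from -5.64 for Lpl to 4.50 for Dgat1. The median over the members was 0.11, beside 0.40 over all genes above background on at least 1 array and 0.46 over the 14019 measured on both. A difference near 0 depends on how the arrays are scaled. Against the 75th percentile, the median of genes measured on both arrays moved by -0.18 with the authors' deposited values, by -0.23 with quantile normalisation, by -0.55 with scaling to the spike-in controls and by -0.87 with no scaling. The split of the called members went from 4 and 6 to 3 and 8 with the spike-in controls and to 3 and 10 with no scaling. Over all genes, the share of 4-fold calls that were higher in granulocytes was 45.0%, 24.0% and 16.1% under those 3 settings. Under 6 other scalings or corrections, 32 members kept their sign and 17 changed it at least once. These 17 are named as such below. With no scaling every difference falls by 0.87, so a group median above 0 but under that size, as given below, then lies below 0.

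**Figure D1:**
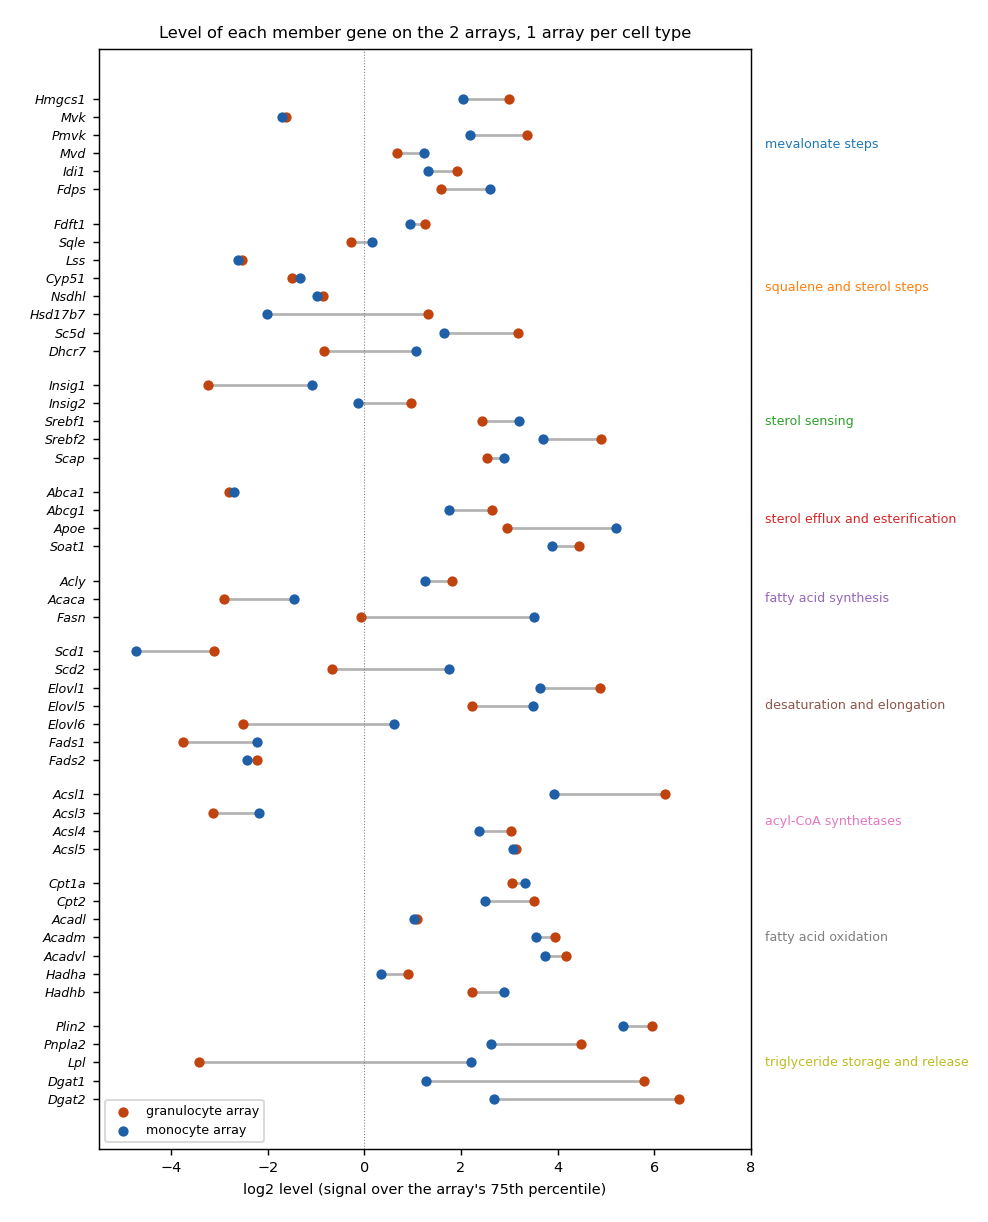
Level of each of the 49 members on the granulocyte and the monocyte array, in units of each array's 75th percentile and on a log axis, grouped by role. There is 1 array per cell type, so no error bar is drawn; Lpl (0.093 against 4.64) and Dgat1 (55.0 against 2.43) are the widest pairs.

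Promoter sequences show the letters these genes share apart from their levels. RefSeq's table for GRCm38.p6 matched 39 of the 49 members and gave 51 windows of 300 bases, 250 before and 50 after each start site. Motifs were searched on both strands. The NF-Y box CCAAT, bound by the factor NF-Y, a common partner of SREBP, was in 51.0% of member windows and in 37.4% of 32851 windows of all genes. The core of a sterol response element, TCACCCCAC, was in 3.92% of member windows (Hmgcs1 and Acsl1) and in 0.551% of all. The looser form TCACNCCAC, which includes the core, was found in no further member and in 1.24% of all windows. The Sp1 box GGGCGG was in 68.6% of member windows against 35.7% of all, the E-box CACGTG in 17.6% against 7.15%, and the nuclear receptor hexamer AGGTCA in 23.5% against 16.3%. A match of letters is no measure of binding.

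The NF-Y box was more frequent in some roles than others, in counts too small to compare. It was in the promoters of 5 of 5 members of the mevalonate steps and 6 of 6 of the squalene and sterol steps with an entry. Sterol sensing had it in 4 of 5, acyl-CoA synthetases in 3 of 4, fatty acid synthesis in 2 of 3, and desaturation and elongation in 2 of 4. It was in 1 of 3 for efflux and esterification, in 1 of 2 for triglyceride storage, and in 1 of 7 for fatty acid oxidation. The 250 bases before the start site are shown for 6 members, namely both that hold the core sterol element and 4 further members that were at least 4-fold different, from both sides. Capitals mark CCAAT or its reverse complement ATTGG, and the core element on either strand.
Hmgcs1 (chr13:119690101-119690350, plus strand): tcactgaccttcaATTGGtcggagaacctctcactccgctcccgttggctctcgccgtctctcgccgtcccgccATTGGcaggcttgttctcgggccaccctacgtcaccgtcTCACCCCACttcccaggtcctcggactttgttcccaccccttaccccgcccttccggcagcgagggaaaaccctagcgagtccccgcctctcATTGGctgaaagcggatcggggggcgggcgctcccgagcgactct
Acsl1 (chr8:46490716-46490965, plus strand): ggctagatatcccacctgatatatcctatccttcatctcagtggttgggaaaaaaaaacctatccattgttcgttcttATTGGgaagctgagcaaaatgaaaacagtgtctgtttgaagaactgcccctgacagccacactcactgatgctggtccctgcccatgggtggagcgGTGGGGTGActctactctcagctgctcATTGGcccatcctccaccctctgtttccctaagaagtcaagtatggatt
Hsd17b7 (chr1:169969206-169969455, minus strand): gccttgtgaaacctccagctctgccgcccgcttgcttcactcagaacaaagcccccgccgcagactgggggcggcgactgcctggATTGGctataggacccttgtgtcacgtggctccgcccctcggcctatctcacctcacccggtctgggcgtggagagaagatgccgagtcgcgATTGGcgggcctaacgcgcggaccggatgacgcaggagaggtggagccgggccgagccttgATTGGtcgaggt
Insig1 (chr5:28071162-28071411, plus strand): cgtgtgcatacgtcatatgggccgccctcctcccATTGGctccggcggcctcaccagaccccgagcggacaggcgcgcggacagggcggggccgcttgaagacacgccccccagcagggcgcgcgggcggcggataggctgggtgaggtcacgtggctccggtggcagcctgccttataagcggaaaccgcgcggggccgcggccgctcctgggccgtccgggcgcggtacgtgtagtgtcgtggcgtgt
Fasn (chr11:120824548-120824797, minus strand): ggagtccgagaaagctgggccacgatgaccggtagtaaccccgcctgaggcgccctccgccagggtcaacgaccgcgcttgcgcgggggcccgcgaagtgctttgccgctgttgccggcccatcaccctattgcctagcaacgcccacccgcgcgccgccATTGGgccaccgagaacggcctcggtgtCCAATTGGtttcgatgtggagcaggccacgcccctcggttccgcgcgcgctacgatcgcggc
Elovl6 (chr3:129532136-129532385, plus strand): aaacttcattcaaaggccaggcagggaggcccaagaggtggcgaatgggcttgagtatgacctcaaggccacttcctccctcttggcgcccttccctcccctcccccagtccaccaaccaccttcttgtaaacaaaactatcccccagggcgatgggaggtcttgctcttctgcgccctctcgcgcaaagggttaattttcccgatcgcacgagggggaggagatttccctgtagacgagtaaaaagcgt

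In the Hmgcs1 promoter the core element lies from -137 to -129 relative to the start site, with NF-Y boxes beginning at -237, -176 and -45. Acsl1 has it on the other strand, from -76 to -68 in 1 of its listed promoters, between boxes at -172 and -49. Hsd17b7 holds 3 boxes, at -165, -73 and -12, and Insig1 holds 1, at -216. Fasn holds 1 at -90 and an overlapping pair on opposite strands at -62 and -59. Elovl6 holds none in this window. Members with these letters fell on both sides: Acsl1 and Hsd17b7 were higher in granulocytes, Insig1 and Fasn in monocytes.

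The mevalonate steps differed little between the cell types. Of 6 genes, none was different by 4-fold, 1 (16.7%) passed 2-fold in each direction, and the median difference was 0.34. Of all genes, 29.0% passed 2-fold toward granulocytes and 21.0% toward monocytes. Hmgcs1, which makes the HMG-CoA that the pathway starts from, had a level of 7.94 in granulocytes and 4.14 in monocytes, a difference of 0.94 with 0.60 to 1.39 over its probes. Mvk, mevalonate kinase, had 0.326 against 0.308 (0.08), and its sign changed without scaling, with spike-in scaling and with the authors' values, and between its probes (-0.55 and 0.08). Pmvk, the next kinase, had 10.3 against 4.54, a difference of 1.19 on both of its probes. Mvd, the decarboxylase that yields isopentenyl diphosphate, was lower in granulocytes at 1.58 against 2.33 (-0.56).

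Idi1, the isomerase of that product, had a level of 3.77 in granulocytes and 2.50 in monocytes (0.59), with 0.05 on its other probe and the opposite sign without scaling. The array's annotation places both Idi1 probes on chromosome 2, whereas the RefSeq promoter of the gene is on chromosome 13, so what these probes measure is uncertain. Fdps, farnesyl diphosphate synthase at the branch to sterols and prenyl groups, was 2.01-fold higher in monocytes, at 3.01 against 6.06 (-1.01, and -0.75 on its other probe). Steps of the same pathway thus pointed to different cell types, Pmvk to granulocytes and Fdps to monocytes.

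Among the 8 squalene and sterol steps, the median was 0.09. At 4-fold, 1 gene (12.5%) passed toward granulocytes and none toward monocytes, beside 8.58% and 10.5% of all genes. The 1 gene was Hsd17b7, the 3-ketosteroid reductase that acts on sterol intermediates after demethylation. Its level was 2.49 in granulocytes and 0.246 in monocytes, a difference of 3.34 or 10.1-fold, and its other probe gave 3.15. The probe lies on the minus strand of chromosome 1 from 171789135 to 171789194 (mm8). Sc5d, the desaturase just before the last step, was 2.88-fold higher in granulocytes, at 9.05 against 3.14 (1.53, and 1.38 on the other probe). Dhcr7, the reductase that completes cholesterol, went the other way at 0.563 against 2.10 (-1.90, 3.72-fold, and -1.09 on the other probe). These 2 enzymes act in sequence, and their differences had opposite signs.

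The other 5 genes of these steps were under 2-fold. Fdft1, squalene synthase, had a level of 2.38 in granulocytes and 1.92 in monocytes (0.31, turning without scaling and with the spike-ins). Sqle, squalene epoxidase, had 0.826 against 1.12 (-0.43) and kept its sign. Lss, the cyclase that forms lanosterol, had 0.171 against 0.163 (0.07), and its probes ran from -0.52 to 0.07. Its sign turned under quantile normalisation, no scaling, spike-in scaling and the authors' values. Cyp51, the demethylase, had 0.356 against 0.395 (-0.15), with probes from -0.24 to 0.26 and the opposite sign after normexp correction. Nsdhl, which works beside Hsd17b7 in the same reaction series, had 0.551 against 0.510 (0.11) and 4 probes from 0.11 to 1.10, and turned without scaling, with the spike-ins and with the authors' values. All 5 differences lay below the median of genes measured on both arrays (0.46) and under 2-fold, whereas the 3 genes named before them passed 2-fold.

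The 5 sterol sensing genes were divided, with a median of -0.35. At 2-fold, 2 (40.0%) passed toward granulocytes and 1 (20.0%) toward monocytes, beside 29.0% and 21.0% of all genes. The SREBP2 gene Srebf2 had a level of 29.9 in granulocytes and 13 in monocytes, a difference of 1.20, with 4 probes from 0.52 to 1.88. The SREBP1 gene Srebf1 had 5.37 against 9.21 (-0.78). The 2 factor genes therefore had opposite signs, and both kept them under every scaling tried.

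The INSIG genes, whose proteins retain the SCAP complex in the endoplasmic reticulum, were split as well. Insig1, itself a known SREBP target, was 4.46-fold higher in monocytes, at 0.105 against 0.469 (-2.16). Its other probe gave 0.118 against 0.305 (-1.37), which is under 4-fold, and the difference was -1.20 after normexp correction. The Insig1 probe lies on the plus strand of chromosome 5 from 28408493 to 28408552 (mm8). Insig2 had 1.95 against 0.915, a difference of 1.09 with 0.98 as the lowest of its probes. Scap, the escort protein, had 5.79 against 7.37 (-0.35).

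**Figure D2:**
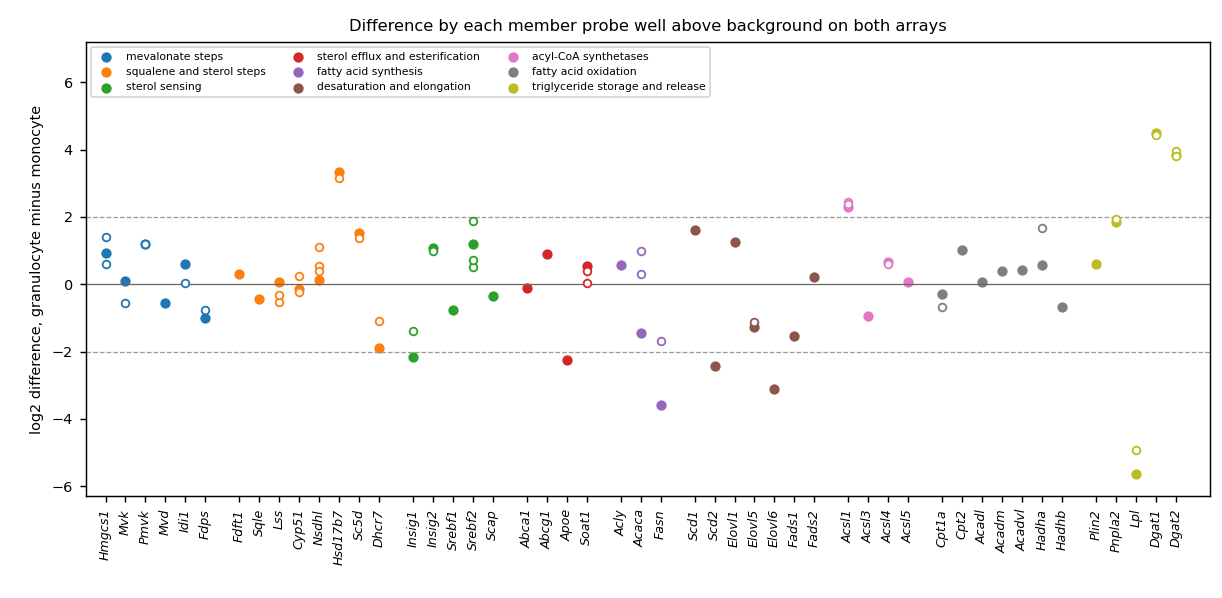
Log2 difference, granulocyte minus monocyte, of every member probe well above background on both arrays, 1 column per gene. Probes of Dgat1, Dgat2, Acsl1 and Hsd17b7 lie close together, whereas those of Acaca, Cyp51, Lss and Mvk fall on both sides of 0.

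Of the 4 efflux and esterification genes, Apoe alone passed 4-fold, and the median was 0.22. Apoe, the lipoprotein that carries lipid out of macrophages, had a level of 7.74 in granulocytes and 37.0 in monocytes, a difference of -2.26 or 4.79-fold. Its probe was printed repeatedly, and 9 usable spots gave 7.74 ± 0.173 in granulocytes and 37.1 ± 1.22 in monocytes (SD over spots, 1 RNA sample each), so the spots did not overlap. The probe lies on the minus strand of chromosome 7 from 18854905 to 18854964 (mm8). Apoe is also made by macrophages. Their marker list summed to 9.60 in granulocytes and 28.3 in monocytes, of which Adgre1 alone gave 7.11 and 25.4. Of the 9 markers, 4 passed 2-fold toward granulocytes and 3 toward monocytes (1 of them, Axl, by 4-fold), and the median of the 8 measured on both arrays was 0.91, toward granulocytes. The part of macrophages in the result was not tested.

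The cholesterol exporters did not follow Apoe. Abca1, which loads cholesterol onto lipid-poor apolipoprotein, had a level of 0.142 in granulocytes and 0.154 in monocytes (-0.12, turning after normexp correction). Abcg1, which exports to mature lipoprotein particles, had 6.21 against 3.36 (0.89). Soat1, which esterifies cholesterol for storage, had 21.7 against 14.8 (0.55), with 0.04 as the lowest of its 3 probes and the opposite sign without scaling.

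Fatty acid synthesis was higher in monocytes at the step of the synthase. Fasn, the enzyme that builds palmitate, had a level of 0.953 in granulocytes and 11.3 in monocytes, a difference of -3.57 or 11.9-fold. Its other probe was dim in granulocytes, at 0.0314 just above the lowest level called above background there (0.0279), and 0.10 in monocytes, a difference of -1.68. The SD between the probes, 1.34, was the highest of any member, and their mean difference was -2.62. The brighter probe lies on the minus strand of chromosome 11 from 120623236 to 120623295 (mm8). Acly, which supplies cytosolic acetyl-CoA, had 3.53 against 2.38 (0.57, turning without scaling).

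Acaca, the acetyl-CoA carboxylase that commits carbon to fatty acids, was less clear. The probe that represents Acaca had a level of 0.133 in granulocytes and 0.365 in monocytes (-1.45). Its 2 other measured probes gave 0.32 and 1.0, and a further probe was above background on the monocyte array alone. The SD between the 3 measured probes was 1.27, so the array gives no single direction for Acaca, and the difference of -1.45 became -0.66 after normexp correction.

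Desaturases and elongases were also higher in monocytes more often than in granulocytes. Of 7 genes, 2 (28.6%) were at least 4-fold and 4 (57.1%) at least 2-fold higher in monocytes, beside 10.5% and 21.0% of all genes. In granulocytes the counts were none and 2 (28.6%), beside 8.58% and 29.0%. The median was -1.27, and 7 genes are few for a share. Elovl6, which extends palmitate to stearate, had a level of 0.175 in granulocytes and 1.52 in monocytes (-3.12, 8.68-fold), and the difference was -2.16, close to 4-fold, after normexp correction. Its probe lies on the plus strand of chromosome 3 from 129630352 to 129630411 (mm8). Scd2, a stearoyl-CoA desaturase, had 0.629 against 3.35 (-2.42, 5.33-fold), from a probe on the plus strand of chromosome 19 from 44359845 to 44359904. Together with Fasn, these enzymes make and modify palmitate in sequence, and all 3 were at least 4-fold higher in monocytes under each of the 10 alternatives run for every member.

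The sister desaturase Scd1 went the other way, at a level of 0.116 in granulocytes and 0.0378 in monocytes (1.61, 3.05-fold), and the difference was 0.99 after normexp correction. Both values are low on their arrays, where the lowest levels called above background were 0.0279 and 0.0152. Fads1, the delta-5 desaturase of polyunsaturated fatty acids, had 0.0739 against 0.215 (-1.54, and -0.50 after normexp correction). Fads2, the delta-6 desaturase, had 0.215 against 0.186 (0.21, turning without scaling and with the spike-ins). Elovl5, which extends polyunsaturated chains, had 4.67 against 11.3 (-1.27, and -1.13 on the other probe). Elovl1, the elongase of very long saturated chains, had 29.5 against 12.4 (1.25). The elongases were thus divided, Elovl5 and Elovl6 higher in monocytes and Elovl1 in granulocytes.

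**Figure D3:**
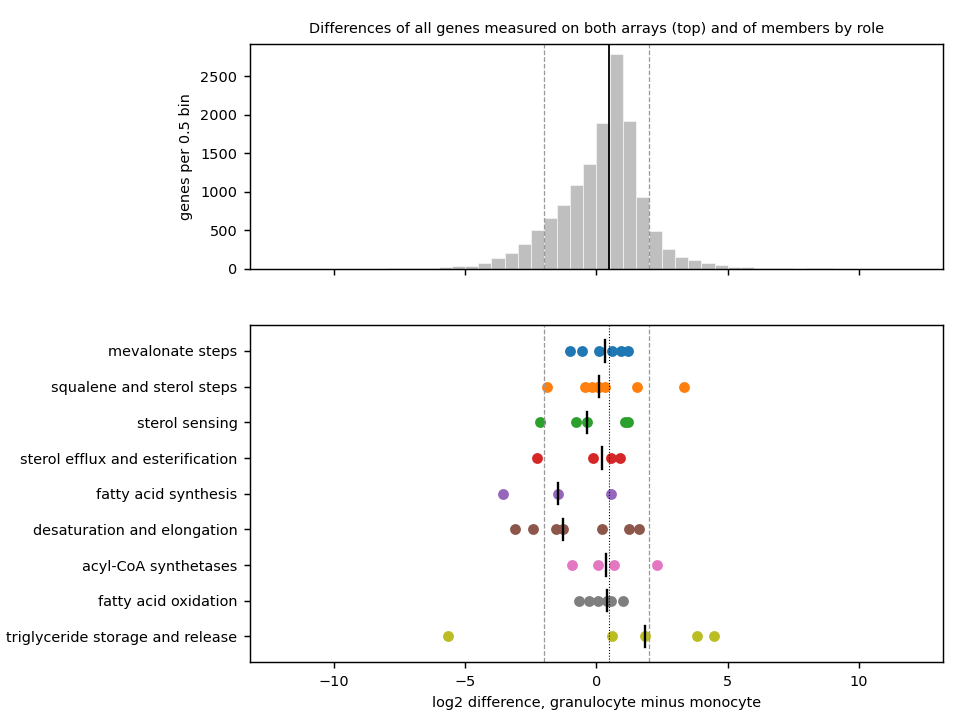
Top, number of genes per bin of 0.5 in log2 difference for the 14019 genes measured on both arrays, with a solid line at their median of 0.46; bottom, each member as a point by role with a bar at the role's median. Dashed lines mark 4-fold; medians run from -1.45 for fatty acid synthesis to 1.86 for triglyceride storage and release.

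Acyl-CoA synthetases activate free fatty acids, and 1 of the 4 was at least 4-fold higher in granulocytes, with a median of 0.36. Acsl1 had a level of 74.9 in granulocytes and 15.2 in monocytes, a difference of 2.30 or 4.93-fold. Its 3 probes, on the plus strand of chromosome 8 (the brightest from 48034695 to 48034754, mm8), agreed within 2.30 to 2.44. The call was lost with quantile normalisation, spike-in scaling and no scaling, where the lowest value was 1.43. Acsl3, found on lipid droplets and the endoplasmic reticulum, had 0.113 against 0.219 (-0.95, and -0.18 after normexp correction). Acsl4, which prefers arachidonic acid, had 8.22 against 5.20 (0.66, with 0.60 on the other probe and the opposite sign without scaling). Acsl5 had 8.75 against 8.44 (0.05), and its sign turned under 5 of the 6 other scalings and corrections.

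Mitochondrial fatty acid oxidation differed least, with none of 7 genes at 4-fold and a range from -0.67 to 1.02. Of all genes, 8.58% passed 4-fold toward granulocytes and 10.5% toward monocytes. Cpt1a, which admits long-chain acyl groups to mitochondria, had a level of 8.27 in granulocytes and 10.0 in monocytes (-0.28, and -0.69 on the other probe). Its repeated probe gave 8.28 ± 0.315 and 10.0 ± 0.406 (SD over 10 spots on each array). Cpt2, which regenerates the acyl-CoA inside, had 11.5 against 5.66 (1.02), the 1 gene of the group past 2-fold. The carnitine shuttle enzymes therefore had opposite signs, and both kept them under every scaling tried.

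The dehydrogenases of the first step of the cycle differed little. Acadvl, for very long chains, had a level of 18.2 in granulocytes and 13.4 in monocytes (0.44). Acadm, for medium chains, had 15.3 against 11.7 (0.39), and Acadl, for long chains, had 2.13 against 2.04 (0.06). All 3 turned sign with quantile normalisation, spike-in scaling and no scaling, and Acadl also with the authors' values. Hadha, the alpha subunit of the trifunctional protein, had 1.86 against 1.26 (0.56, with 1.67 on another probe and the opposite sign without scaling). Hadhb, the beta subunit of the same complex, had 4.68 against 7.45 (-0.67).

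Triglyceride storage and release held the widest differences in both directions. The median of the 5 genes was 1.86. At 4-fold, 2 (40.0%) passed toward granulocytes and 1 (20.0%) toward monocytes, beside 8.58% and 10.5% of all genes, and 5 genes are few for a share. Dgat1 and Dgat2, unrelated enzymes that each carry out the final step of triglyceride synthesis, were both far higher in granulocytes. Dgat1 had a level of 55.0 against 2.43, a difference of 4.50 or 22.6-fold, and its other probe had 46.0 against 2.14 (4.43). Dgat2 had 91.7 against 6.38, a difference of 3.85 or 14.4-fold, and its 3 probes ran from 3.81 to 3.96. Among the genes measured on both arrays, Dgat1 ranked 136 and Dgat2 ranked 231 from the granulocyte end.

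The Dgat1 probe lies on the minus strand of chromosome 15 from 76329953 to 76330099 (mm8), a span of 147 bases for a probe of 60. The Dgat2 probe lies on the minus strand of chromosome 7 from 99028897 to 99028956. Both differences stayed at least 4-fold under the 10 alternatives, with 3.63 to 4.50 for Dgat1 and 2.98 to 3.87 for Dgat2. Eosinophil, basophil and mast cell markers also summed higher on the granulocyte array (337 against 15.9, 2 of 6 at least 4-fold). Hdc alone gave 328 and 10.1 of these sums. Cpa3 (5.08-fold) and Mcpt8 (2.01-fold) of the same list were also higher in granulocytes, at low levels. The eosinophil genes Epx and Prg2 differed by 0.38 and 0.62, and Ms4a2 by -0.07. The part of these cells in the results was not tested.

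Lpl, the lipase that frees fatty acids from lipoproteins outside the cell, was the member highest in monocytes. It had a level of 0.093 in granulocytes and 4.64 in monocytes, a difference of -5.64 or 49.9-fold, and ranked 48 from the monocyte end. Its other probe had 0.0389 against 1.18 (-4.92, 30.3-fold). Both granulocyte levels of Lpl are low, beside 0.0279 as the lowest called above background there, and the difference was -4.23 after normexp correction. The brighter probe lies on the plus strand of chromosome 8 from 71835357 to 71835416 (mm8). Lpl is also a gene of macrophages and fat cells. The macrophage and fat cell markers are given above, and their part in the result was not tested.

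Of the droplet coat gene Plin2 and the droplet lipase gene Pnpla2, only Pnpla2 was clearly higher in granulocytes. Pnpla2, the lipase that takes the first fatty acid from stored triglyceride, had a level of 22.3 in granulocytes and 6.16 in monocytes (1.86, 3.62-fold, and 1.94 on the other probe). Plin2, the perilipin of droplets in most cells, had 62.4 against 41.1 (0.60, turning without scaling). That is 0.14 above the median of genes measured on both arrays. The Plin2 difference was 0.03 with quantile normalisation and 0.06 with spike-in scaling. The intracellular lipase Pnpla2 and the secreted lipase Lpl thus had opposite signs.

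**Figure D4:**
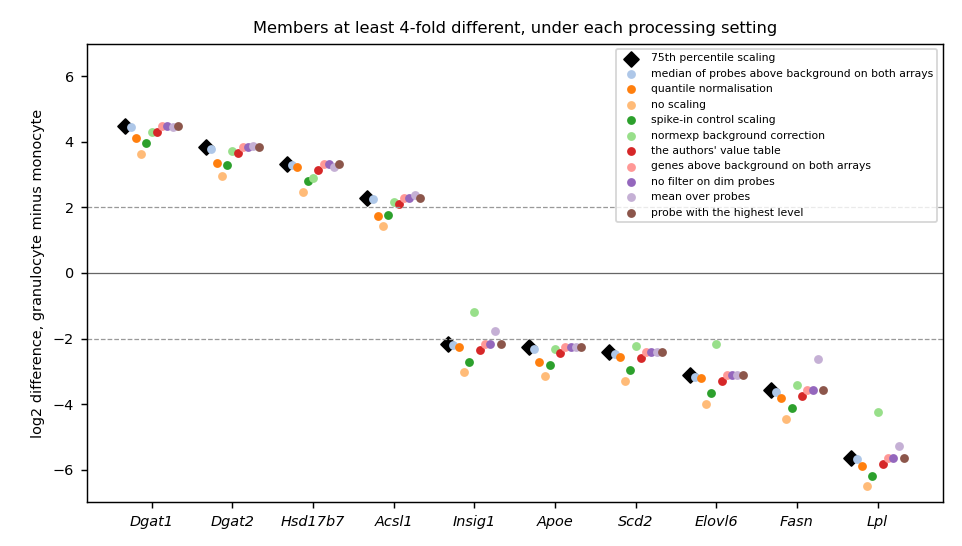
Log2 difference, granulocyte minus monocyte, of the 10 members at least 4-fold different, at the 75th percentile scaling and under the 10 alternatives; dashed lines mark 4-fold. Each gene stays on its side of 0, and only Acsl1 and Insig1 cross inside the dashed lines.

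Other genes of the same pathways were read from a list of 94, of which 88 were above background on at least 1 array. Of these 88, 11 (12.5%) passed 4-fold toward granulocytes and 12 (13.6%) toward monocytes, beside 8.58% and 10.5% of all genes. Their median difference was 0.15. Ch25h, Elovl2, Elovl4, Acsl6 and Ppara were not well above background on either array, and Acat2 had no probe that lists it alone.

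Triglyceride and droplet genes had the highest median of the 5 lists, 0.66, toward granulocytes. Of 28 genes, 5 (17.9%) passed 4-fold in that direction and 1 (3.57%) in the other, beside 8.58% and 10.5% of all genes. At 2-fold, 11 (39.3%) and 3 (10.7%) passed, beside 29.0% and 21.0%. G0s2, an inhibitor of the lipase Pnpla2, had a level of 44.7 in granulocytes and 1.01 in monocytes (5.47, 44.2-fold). Mgll, which releases the last fatty acid from glycerol, had 17.4 against 0.576 (4.92, 30.2-fold). The droplet coat genes Plin5 (2.11 against 0.103, 4.36) and Plin4 (0.840 against 0.156, 2.43) were higher there too. Lpin1, a phosphatidate phosphatase, was the 1 gene at least 4-fold higher in monocytes, at 0.290 against 1.45 (-2.32). In all, 6 of the 24 genes measured on both arrays were higher in monocytes.

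Sterol handling genes were more often higher in monocytes, with a median of -0.36. Of 10 genes above background, 4 (40.0%) were at least 4-fold higher there, beside 10.5% of all genes. In granulocytes it was 1 (10.0%), beside 8.58%. Cyp27a1, which makes 27-hydroxycholesterol, had a level of 0.0343 in granulocytes and 2.52 in monocytes (-6.20, 73.4-fold). Its granulocyte level, from 1 probe, lay near the lowest called above background there (0.0279), so the size of the difference is uncertain. The lipoprotein receptor Lrp1 had 0.302 against 8.05 (-4.74, 26.7-fold). Scarb1, the receptor for high-density lipoprotein, had 0.825 against 7.0 (-3.08), and Npc2, which binds cholesterol in lysosomes, had 11.3 against 50.1 (-2.15). The exception was Vldlr, another lipoprotein receptor, at 0.133 against 0.0193 (2.79). Its monocyte level likewise lay near the lowest called above background there (0.0152).

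The remaining sterol genes had a median of 0.23. Of 13, 2 (15.4%) passed 4-fold toward granulocytes and none toward monocytes, beside 8.58% and 10.5% of all genes. Msmo1, the methyl sterol oxidase that acts before Nsdhl and Hsd17b7, had a level of 33.3 against 5.85 (2.51, 5.69-fold). Mylip, a ligase that marks lipoprotein receptors for breakdown, had 8.38 against 1.78 (2.24). Msmo1 and Hsd17b7, which belong to the same demethylation series, were thus both at least 4-fold higher in granulocytes. Nsdhl between them (0.11, with 4 probes from 0.11 to 1.10) was not. Spike-in scaling and no scaling lower every difference, by 0.55 and 0.87, and under both Msmo1, read from 1 probe, and Mylip fall below 4-fold.

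Other fatty acid synthesis genes had a median of 0.37. Of 17, 3 (17.6%) passed 4-fold toward granulocytes and 4 (23.5%) toward monocytes, beside 8.58% and 10.5% of all genes. Elovl7, an elongase, had a level of 14.8 in granulocytes and 0.452 in monocytes (5.04, 32.9-fold), and the acyl-CoA thioesterase Acot1 had 10.2 against 1.25 (3.03). Elovl3 was not above background in monocytes and was at least 5.47-fold higher in granulocytes. In monocytes, the 3-hydroxyacyl-CoA dehydratase Hacd3 was 15.5-fold higher (0.919 against 14.2) and Fads3, not above background in granulocytes, at least 7.93-fold higher. Hsd17b12, the reductase of the elongation cycle, differed by -2.30. Hacd1 differed by -3.15 on 1 probe and 0.80 on another, so it has no single direction.

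Other oxidation genes had a median of -0.54. At 4-fold, none of 20 passed toward granulocytes and 3 of 20 toward monocytes, beside 8.58% and 10.5% of all genes. At 2-fold, 5 of 20 and 10 of 20 passed, beside 29.0% and 21.0% of all genes. The lean toward monocytes was thus clearer at 2-fold than at 4-fold, and 20 genes are few for a share. Hadh, the short-chain hydroxyacyl-CoA dehydrogenase, had a level of 0.185 in granulocytes and 2.70 in monocytes (-3.87, 14.6-fold). The hydratase Echs1 had 2.52 against 11.0 (-2.12), and the coactivator gene Ppargc1b differed by -2.09. The 4-fold calls among oxidation genes thus lay in this wider list, and none lay among the 7 oxidation members.

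**Figure D5:**
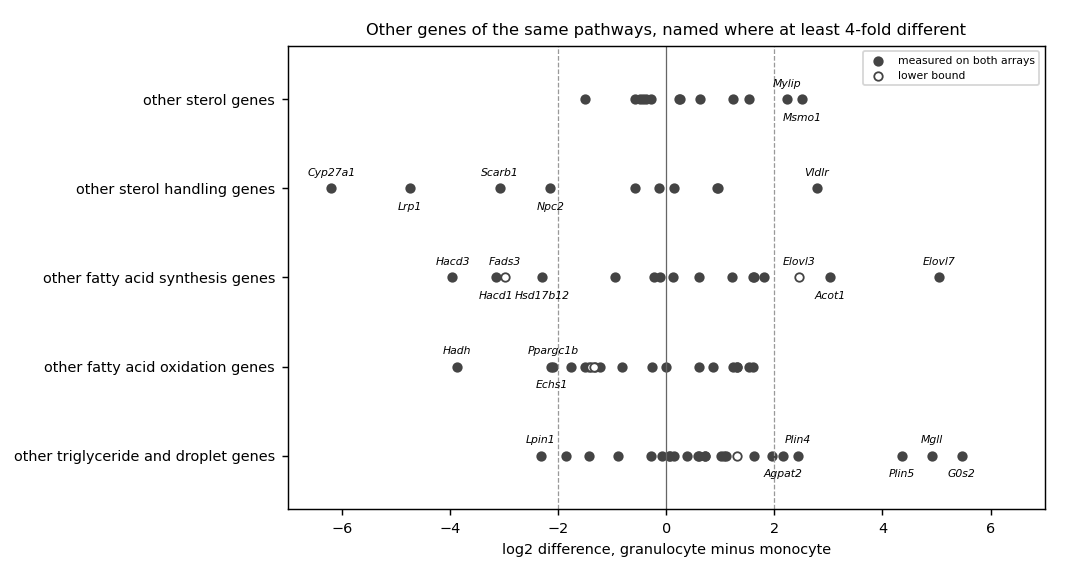
Log2 difference, granulocyte minus monocyte, of the other pathway genes by list, with dashed lines at 4-fold and names for genes past it; open points are lower bounds for genes above background on 1 array. Points reach from -6.20 for Cyp27a1 to 5.47 for G0s2.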

How the data were processed

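Per the file headers, the deposited array files hold background-subtracted signal intensity per spot from Agilent Feature Extraction 10.5.1.1, with probe positions on mm8. Per the labels' protocols, 0.5 µg of total RNA was amplified per sample. The authors' deposited value table was found to be log2 intensity plus a constant per array (-0.24 and -0.92, within 0.01 for 100.0% of 40929 single-spot probes, with a median of 4.80 on both arrays); the rule behind its constants is unknown, and it served as an alternative. The members and lists were chosen with earlier results of these data known.

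Control spots and outlier spots were left out, spots of a probe were averaged, and log2 intensity minus each array's 75th percentile was used. The 2 arrays shared 1 slide and 1 scan time, and their number limits the precision. Each gene took the probe well above background on most arrays and, among those, the brightest over both arrays. A probe above background on 1 array gave a lower bound, against the higher of the other array's own signal and its lowest signal above background. Genes other than members were named through RefSeq by accession (23997 probes), symbol (6229) or older symbol (2385); 411 probes that list several genes and 8061 without a match were left out. Every member is named; of the other pathway genes, up to 4 of at least 4-fold per list and direction. Python 3.11.15, numpy 2.4.6, pandas 2.3.3, R 4.3.3 and limma 3.58.1 (normexp, offset 50) were used, and the scripts were tested on simulated data. Alternatives were quantile normalisation, scaling to the median of well-measured probes, 9 spike-in controls, no scaling, normexp, the authors' table, both filters on dim probes, the mean over probes and the brightest probe.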

Additional observations from a re-analysis of the deposited data

How the results depend on the processing

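No paired analysis was possible because each group has 1 array. All 10 members at least 4-fold different kept their direction under the 10 alternatives run for each member. Insig1 was under 4-fold after normexp correction and as a mean over probes, and Acsl1 under quantile normalisation, spike-in scaling and no scaling. Of 490 recomputed member values, 450 kept their sign. With no scaling, 10 members passed 4-fold toward monocytes and the median over members was -0.76; with the spike-in controls it was -0.43. At 2-fold the counts were 12 members for granulocytes and 11 for monocytes, and at 8-fold 3 for granulocytes and 3 for monocytes. Of the other pathway genes, those higher in granulocytes numbered 5 with no scaling, 6 with the spike-in controls, 7 after normexp correction, 28 at 2-fold and 5 at 8-fold. Those higher in monocytes numbered 22 with no scaling, 22 at 2-fold and 6 at 8-fold. Low signals are limited by background: in Scd1, Fads1, Lpl in granulocytes and the second Fasn probe, levels lay near the lowest called above it. The same held for Cyp27a1 in granulocytes and Vldlr in monocytes. With 1 array per cell type, no difference here could be set against the spread between mice or sorts.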

Other observations

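The paths that make and release stored triglyceride could be followed through more genes than those named by rule, and these were picked after their values were seen. Abhd5, the activator of the lipase Pnpla2, had a level of 7.95 in granulocytes and 2.06 in monocytes (1.95, 3.86-fold). Lipe, hormone-sensitive lipase, which cleaves diglyceride, had 2.02 against 0.656 (1.63, 3.09-fold). Agpat2, which makes phosphatidate on the way to triglyceride, had 10.2 against 2.30 (2.15, 4.45-fold). The fatty acid uptake and binding genes did not share this direction: Cd36 differed by -0.88 (turning after 1 other scaling or correction) and Fabp4 by 0.08 (turning under 3), and Fabp5 was not measurable on both arrays. The droplet protein gene Hilpda differed by -0.29. Bscl2 (-1.42) and Angptl4 (-1.86) of the same list were, like Lpin1 above, at least 2-fold higher in monocytes.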
